A study of Rattus norvegicus with 9 samples.

Results

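The oncofetal markers of hepatocellular carcinoma (HCC) were 8 genes out of the 32883 in the deposited table, namely Afp, Gpc3, Igf2, Dlk1, Igf2bp2, Igf2bp3, Golm1 and Cd44. They were taken by name, as genes known for high levels in the fetal liver or in liver tumours, with earlier results of these data known. The rats were male Sprague–Dawley animals, 9 in all, with 3 in each of 3 groups and 1 mRNA library from the liver of each. Normal control rats (N1, N12 and N3) were on a normal diet without diethylnitrosamine (DEN), a liver carcinogen. DEN model rats (M13, M17 and M24) were given weekly intraperitoneal injections of 0.01% DEN over a schedule of 16 weeks. PZH administration rats (G27, G28 and G42) were given the same DEN schedule together with Pien-Tze-Huang (PZH), a traditional Chinese medicine formula. The deposited treatment tag of the M rats reads PZH as well, so the groups rest on the first letter of the rat names and on the study's methods. The PZH dose and the week of collection of the sequenced rats were not given in the sources used here, and rats of this study were collected at several weeks. Whether nodules were separated from the tissue around them is not given in the sources used here.

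Oncofetal genes are active in the embryo and the fetal liver, are turned down in hepatocytes around birth, and can become active again in liver tumours or in regenerating tissue. The panel holds secreted products (Afp, Igf2), a protein that exists both on the membrane and as a shed form (Dlk1), RNA-binding proteins of the IMP family (Igf2bp2, Igf2bp3), cell-surface proteins (Gpc3, Cd44) and a Golgi membrane protein (Golm1). AFP and GPC3 are used as serum and tissue markers of HCC, and GOLM1, also called GP73, is measured in serum.

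Libraries held 14922973 to 27161496 counts. Levels of 1 gene are given as CPM, its counts in each 1000000 counts of the library, with library sizes TMM-scaled over the 9 rats, and a count of 3 corresponded to 0.125 to 0.252 CPM. TMM factors separated the groups, with 0.731 to 0.799 in normal control rats, 1.21 to 1.58 in DEN model rats and 0.863 to 0.941 in PZH administration rats. Scaling by library totals instead moved the median log2 fold change over all genes by 0.86 for DEN model against normal control, by -0.67 for PZH administration against DEN model and by 0.23 for PZH administration against normal control. All 8 hepatocyte markers were detected in every rat, and their summed level was 132000 to 139000 CPM in normal control rats, 20400 to 49500 CPM in DEN model rats and 94200 to 134000 CPM in PZH administration rats.

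Each pair of groups was compared on the counts of its 6 rats by the quasi-likelihood test of edgeR, and a gene is said to rise or fall where the Benjamini-Hochberg adjusted p over all tested genes was under 0.05. Changes are log2 fold changes with their standard error (SE). The thresholds of the study (log2 fold change beyond 2 in either direction and unadjusted P under 0.001) are given beside them. In DEN model against normal control rats, 7 of the 8 genes had enough counts to be tested, 5 rose (Gpc3, Igf2, Igf2bp2, Golm1, Cd44), 1 fell (Igf2bp3), and Afp did not pass. Without any 1 of the normal control rats, Dlk1 was admitted and 8 genes were tested. Of these, 3 rose (Gpc3, Igf2bp2, Cd44) and 1 fell (Igf2bp3), and the share over all genes was not taken for those fits. Igf2bp2 was admitted to the test by the DEN model rats alone, so its rise here and its fall below are descriptions. Without it 4 of 6 genes rose in the fit of all 6 rats. Over all 14255 tested genes, 25.3% rose and 20.5% fell. The filter on low counts keeps a gene that enough rats of either group carry. Several list genes named below, such as Gpc1, Gpc6, Jag2, Igf1r, Hmmr, Casc4, Akr1b10 and Arid3a, were under it in a normal control rat. They passed it there only with the DEN model rats, so their rises are descriptions too, and the list counts include such genes. In the other comparisons some list genes likewise passed only with the group where they were high, such as Jag2 and Hmmr below. Gpc3 and Cd44 passed the study's thresholds, which 12.3% of all tested genes did. In PZH administration against DEN model rats, 7 were tested, 3 fell (Gpc3, Igf2bp2, Cd44; 2 of 6 without Igf2bp2) and 0 rose, where 10.3% of the 14272 tested genes fell and 8.72% rose. Igf2, which did not pass in that comparison, was also admitted only with the DEN model rats and is still among these genes. Cd44 passed the study's thresholds there, as did 2.43% of tested genes. In PZH administration against normal control rats, 6 were tested, 2 were higher (Gpc3, Cd44) and 1 was lower (Igf2bp3), where 4.07% of the 13348 tested genes were higher and 1.15% lower. Gpc3 passed the study's thresholds in that comparison, against 2.32% of tested genes. The rats of the groups did not overlap for 5 of 7 genes in DEN model against normal control (58.8% of all tested genes), for 4 of 7 in PZH administration against DEN model (40.9%) and for 3 of 6 in PZH administration against normal control (24.2%). These shares of the panel can be read only beside those of all genes. The 3 comparisons share groups and are not independent of each other.

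**Figure D1:**
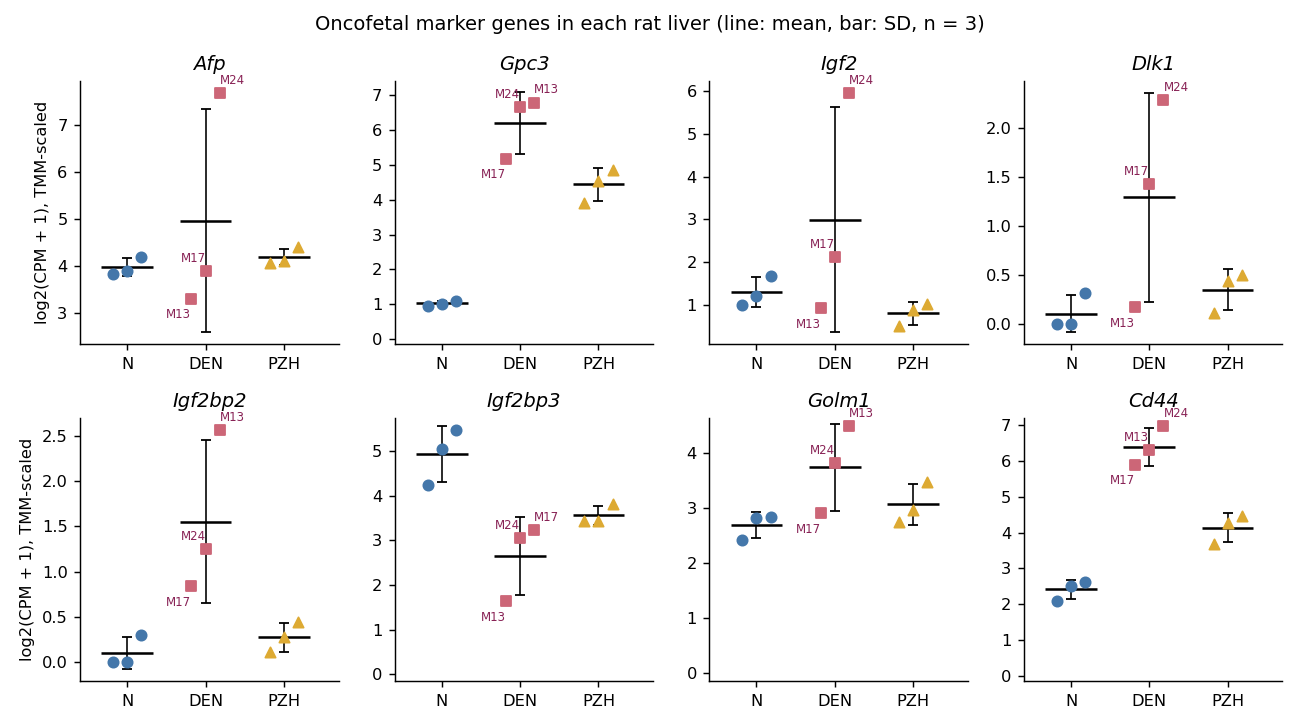
Level of each of the 8 genes in each rat, as log2(CPM + 1) on the vertical axis of each panel, for normal control (N, circles), DEN model (DEN, squares) and PZH administration (PZH, triangles) rats, with the mean as a line and the SD as a bar (n = 3). The vertical axes differ between panels. Gpc3 and Cd44 sit apart in all 3 groups, Afp and Igf2 are high in rat M24 alone, and Igf2bp3 is highest in the normal control rats.

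Afp encodes alpha-fetoprotein, the main plasma protein of the fetus and a relative of albumin, and lies at chromosome 14, 19141755 to 19159923, in the coordinates of the deposited table, whose genome build is not given in the sources used here. The 250 bases before its transcription start in RefSeq (build GRCr8, chr14:17875646-17875895, minus strand) are shown because Afp is the reference serum marker of the panel and its window differs in make-up from those of Igf2 and Gpc3. The capitals mark a TATA box (TATAAA), which begins 37 bases before the start.

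Afp: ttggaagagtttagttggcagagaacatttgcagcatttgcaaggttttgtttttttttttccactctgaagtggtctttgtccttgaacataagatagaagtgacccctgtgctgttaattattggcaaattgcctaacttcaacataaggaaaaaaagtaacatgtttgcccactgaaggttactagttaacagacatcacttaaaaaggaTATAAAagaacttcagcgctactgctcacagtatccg

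Searched on both strands with 2 other motifs, the GC box (GGGCGG) and the AP-1 motif (TGANTCA), the TATA box was found in 4328 of 33469 rat promoter windows of this length (12.9%). A match is a stretch of letters and does not show that a factor was bound in these livers.

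Afp was at 14.1, 17.3 and 13.3 CPM in N1, N12 and N3, at 8.95, 14.1 and 206 CPM in M13, M17 and M24, and at 16.4, 20.2 and 15.9 CPM in G27, G28 and G42. A single DEN model rat, M24, was far above all others, and in TMM-scaled CPM M17 lay inside the normal range and M13 was the lowest of the 9 rats. By library totals M13 (13.3 CPM) was inside the normal range (9.69 to 13.8 CPM) and M17 (17.1 CPM) above it. The log2 fold change of DEN model against normal control was 2.38 (SE 1.03, adjusted p = 0.091), and it did not pass. Without M24 it was -0.34 (adjusted p = 0.38), and the change in PZH administration against DEN model rats went from -2.11 (SE 1.04, adjusted p = 0.19) to 0.63 (adjusted p = 0.21). PZH administration and normal control rats differed by 0.24 (SE 0.22, adjusted p = 0.63). In these bulk libraries fewer cells of a type and less RNA per cell cannot be told apart, for Afp as for the genes that follow.

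Of 10 transcription factors known to act on Afp in the liver, 7 fell, 0 rose and 3 did not pass in DEN model against normal control rats, with a median log2 fold change of -1.08 against 0.03 over all tested genes. Cebpa, Hnf4a, Foxa3 and Nr5a2, which activate hepatocyte genes, fell, with log2 fold changes of -1.69 (SE 0.23, adjusted p = 0.00078), -1.64 (SE 0.29, adjusted p = 0.0024), -2.09 (SE 0.38, adjusted p = 0.003) and -1.24 (SE 0.27, adjusted p = 0.006). Zhx2 and Zbtb20, which repress Afp after birth in mice, fell, with -0.93 (SE 0.22, adjusted p = 0.0086) and -0.59 (SE 0.21, adjusted p = 0.045). The comparison of PZH administration with DEN model rats had 6 of the 10 higher and 0 lower, with Zbtb20 at 1.45 (SE 0.21, adjusted p = 0.0093). Against normal control rats 0 of the 10 passed in edgeR's quasi-likelihood test, and Hnf4a, Foxa2 and Zbtb20 had an unadjusted P under 0.05. The relatives of Afp in the same gene family, Alb, Afm and Gc, all fell in DEN model rats, with -2.09 (SE 0.69, adjusted p = 0.037), -2.94 (SE 0.52, adjusted p = 0.0024) and -2.19 (SE 0.54, adjusted p = 0.011). Afm and Gc rose in PZH administration against DEN model rats, by 2.37 (SE 0.51, adjusted p = 0.02) and 1.63 (SE 0.47, adjusted p = 0.045).

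Igf2 encodes insulin-like growth factor II, the main IGF of the fetus, an imprinted gene that is nearly silent in the adult rodent liver. It lies at chromosome 1, 215828102 to 215846911, in the table, and the features that overlap it there, Mir483 and a pseudogene, had 0 counts in every rat. One of its 2 RefSeq promoter windows (GRCr8, chr1:207250476-207250725, minus strand) is shown to set it beside Afp, whose pattern over the rats it shared. The capitals mark its single GC box, and it does not hold TATAAA.

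Igf2: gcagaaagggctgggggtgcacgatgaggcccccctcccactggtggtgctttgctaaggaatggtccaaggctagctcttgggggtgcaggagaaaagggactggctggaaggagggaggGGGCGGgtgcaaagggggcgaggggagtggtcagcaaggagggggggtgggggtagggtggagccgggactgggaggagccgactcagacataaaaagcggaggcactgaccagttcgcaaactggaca

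Igf2 was at 1.33, 2.21 and 1.01 CPM in N1, N12 and N3, at 0.891, 3.32 and 60.8 CPM in M13, M17 and M24, and at 0.853, 1.04 and 0.427 CPM in G27, G28 and G42. Rat M24 held 1465 counts, M13 21 and M17 67, and M13 was below every normal control rat in TMM-scaled CPM but above N1 and N3 in counts (17 and 12) and in CPM by library totals. DEN model against normal control gave a log2 fold change of 3.85 (SE 1.37, adjusted p = 0.048). Without M24 it was 0.49 (adjusted p = 0.59), and leaving out N1, N12 or N3 instead gave 3.73, 4.23 and 3.63 with adjusted p of 0.14, 0.1 and 0.15. PZH administration against DEN model gave -4.76 (SE 1.47, adjusted p = 0.056), and without M24 -1.39 (adjusted p = 0.25). In the first of these fits Igf2 passed the filter on low counts only with the DEN model rats, as G42 held 6 counts. That fit is therefore a description. Against normal control rats the PZH administration rats differed by -0.95 (SE 0.52, adjusted p = 0.38).

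Afp and Igf2 were high in the same rat. M24 exceeded the second DEN model rat by 14.6 times for Afp and by 18.3 times for Igf2, a gap of more than 10 times that 7 of 14205 genes (0.0493%) showed in M24, 4 in M13 and 5 in M17. The other 5 in M24 were Ces2e (36.9 times), Prss32 (29.7), Cdh17 (20.4), Tnc (14.5) and Fut2 (12.8). The factor of 10 was chosen after these values were seen. Of these, Cdh17 is an adhesion protein of the intestine and Tnc is the matrix protein tenascin C.

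Among 11 genes of IGF receptors, ligand and binding proteins, 5 rose, 4 fell and 2 did not pass in DEN model against normal control rats, with a median of 0.82. The binding proteins Igfbp5 and Igfbp7 rose by 4.04 (SE 0.52, adjusted p = 0.00062) and 2.16 (SE 0.27, adjusted p = 0.00056), and the signalling receptor Igf1r by 2.7 (SE 0.46, adjusted p = 0.0022). Igf2r, the receptor that clears IGF-II, rose by 0.88 (SE 0.18, adjusted p = 0.0048). Igf1, the adult liver's own IGF, fell by 2.1 (SE 0.41, adjusted p = 0.0038) and the binding protein Igfbp4 fell by 2.19 (SE 0.40, adjusted p = 0.0028). Igf1 and Igfbp4 rose in PZH administration against DEN model rats, by 2.04 (SE 0.43, adjusted p = 0.019) and 1.83 (SE 0.44, adjusted p = 0.027), and Igfbp5 and Igfbp7 fell, with -1.47 (SE 0.34, adjusted p = 0.025) and -1.09 (SE 0.29, adjusted p = 0.038). Igfbp2, Igfbp5 and Igfbp7 stayed above normal control in PZH administration rats, at 2.61 (SE 0.48, adjusted p = 0.018), 2.54 (SE 0.42, adjusted p = 0.012) and 1.03 (SE 0.22, adjusted p = 0.03).

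Igf2 and Dlk1 belong to a network of imprinted growth genes. Of 9 other tested genes of that network, 6 rose, 0 fell and 3 did not pass in DEN model against normal control rats, with a median of 1.62. Dcn, also a stellate cell marker, rose by 3.28 (SE 0.34, adjusted p = 0.00029), Mest by 2.09 (SE 0.36, adjusted p = 0.0023) and Sgce by 1.62 (SE 0.34, adjusted p = 0.005). Of these, 4 fell in PZH administration against DEN model rats, among them Grb10, an adaptor that restrains insulin signalling, at -2.08 (SE 0.50, adjusted p = 0.026) and Mest at -1.78 (SE 0.39, adjusted p = 0.021). H19, Meg3 and Peg10 had no entry under these symbols in the table.

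Dlk1 encodes a delta-like protein of hepatoblasts, the bipotent progenitors of the fetal liver, and lies at chromosome 6, 133552821 to 133583751. It had 0, 0 and 3 counts in N1, N12 and N3, 3, 34 and 93 counts in M13, M17 and M24, and 2, 6 and 5 counts in G27, G28 and G42. M17 and M24 were above every other rat, while M13 was at the level of N3 in counts. The gene was below the filter on low counts in each comparison, so it was not tested with the others. Pooled over the rats of a group, the rate in DEN model rats was 24.2 times that in normal control rats, with a 95% interval of 8.09 to 119 that covers counting error and not the spread between rats. The rate in PZH administration rats was 3.16 times that in normal control rats (0.869 to 17.3), which includes 1. Without the filter, edgeR gave 4.47 (SE 1.38, adjusted p = 0.033) for DEN model against normal control and -2.76 (adjusted p = 0.12) for PZH administration against DEN model. With limma on log2(FPKM + 1) the first of these comparisons missed the threshold (0.92, adjusted p = 0.071). The fits without 1 rat kept the filter, which Dlk1 then passed through M17 and M24, so they are descriptions. For DEN model against normal control they gave 3.89, 3.89 and 8.16 without N1, N12 or N3 (adjusted p = 0.1, 0.098 and 0.056). Without M13 the fit gave 5.01 (adjusted p = 0.0087).

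Of 10 tested Notch ligands, receptors and targets, the family around Dlk1, 4 rose and 3 fell in DEN model against normal control rats, with a median of 0.20. Over all tested genes the shares were 25.3% and 20.5%. The ligand Jag1 rose by 2.62 (SE 0.25, adjusted p = 2e-04) and the receptor Notch3 by 2.75 (SE 0.52, adjusted p = 0.0034). The ligand Jag2, at 0.39 to 0.671 CPM in normal control rats, passed the filter on low counts through the DEN model rats alone. Its fitted change of 3.39 (SE 0.42) is a description. Dll4, the ligand of endothelial cells, fell by 1.15 (SE 0.34, adjusted p = 0.024). The Notch targets Hes1 and Hey1 fell as well, from means of 34.2 and 1.36 CPM in normal control rats to 19.3 and 0.297 CPM. Jag1 and Notch3 fell in PZH administration against DEN model rats, with -0.97 (SE 0.27, adjusted p = 0.04) and -2.04 (SE 0.47, adjusted p = 0.024). Jag2, down to 0.626 CPM in PZH administration rats, again passed the filter through the DEN model rats alone. Its fitted change there, -2.12 (SE 0.44), is a description. Jag1 alone of 8 tested was above normal control in PZH administration rats, at 1.60 (SE 0.30, adjusted p = 0.019).

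Igf2bp2 and Igf2bp3 encode IMP2 and IMP3, proteins that bind Igf2 mRNA among many others and affect its stability and translation. They moved in opposite directions in DEN model rats. Igf2bp2 (chromosome 11, 82466071 to 82621079) had 3, 0 and 0 counts in N1, N12 and N3, 116, 16 and 33 counts in M13, M17 and M24, and 2, 3 and 5 counts in G27, G28 and G42. All DEN model rats were above all others, with M13 highest, and the gene passed the filter on low counts through the DEN model rats alone. The pooled rate was 30.7 times that of normal control rats (95% counting interval 10.3 to 150), and the fitted log2 fold change was 4.80 (SE 1.14, adjusted p = 0.0092). It was 8.46 without N1, the only normal control rat with a count, 3.68 without M13 and 0.85 on log2(FPKM + 1) with limma, so its size is not fixed by these counts. It fell by 3.48 (SE 0.87, adjusted p = 0.03) in PZH administration against DEN model rats, a call that 5 of the 6 fits without 1 rat lost (adjusted p = 0.056 to 0.11 in those 5). The rate in PZH administration rats was 2.43 times that in normal control rats (0.626 to 13.7), with no test at these counts.

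Igf2bp3 (chromosome 4, 78746547 to 78879294) was at 18, 43.7 and 32.2 CPM in N1, N12 and N3, at 2.12, 8.41 and 7.30 CPM in M13, M17 and M24, and at 9.77, 13.1 and 9.90 CPM in G27, G28 and G42. In TMM-scaled CPM the groups did not overlap in any pair, with normal control rats highest and DEN model rats lowest. By library totals PZH administration and DEN model rats overlapped (8.43 to 12.2 against 3.16 to 11.5 CPM), as they did in FPKM. IMP3 is widely described as a protein of embryos and tumours, yet here the mRNA was highest in the normal livers. It fell in DEN model rats by 2.38 (SE 0.51, adjusted p = 0.0058), from a mean of 31.3 ± 12.9 CPM to 5.95 ± 3.36 CPM (SD, n = 3). The difference between PZH administration and DEN model rats was 0.90 (SE 0.46, adjusted p = 0.2), and 0.26 (adjusted p = 0.63) with library totals. PZH administration rats were below normal control by 1.52 on the log2 scale (fold change -1.52, SE 0.33, adjusted p = 0.033), which passed neither without G28, G42, N12 or N3 (adjusted p = 0.091, 0.098, 0.1 and 0.077) nor with library totals (adjusted p = 0.05).

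Let-7 microRNAs restrain Igf2bp genes and Lin28a blocks let-7 maturation in the embryo. Of 10 genes of this axis 6 could be tested in DEN model against normal control rats, of which 3 passed upward (Lin28a, Arid3a, Myc), 1 fell (Arid3b) and 2 did not pass. Lin28a had 0 counts in every normal control rat, 43, 12 and 29 counts in M13, M17 and M24, and 0, 1 and 0 counts in G27, G28 and G42. It entered the tests through the DEN model rats alone, so these counts are given as a description. Arid3a, a transcription factor, rose by 1.85 (SE 0.50, adjusted p = 0.016) and fell by 1.90 (SE 0.32, adjusted p = 0.012) in PZH administration against DEN model rats.

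Gpc3 encodes glypican-3, a heparan sulfate proteoglycan anchored in the outer membrane leaflet that binds Wnt and other growth factors, and lies at chromosome X, 139579268 to 139916883. The 2 small annotated features inside it had 0 counts in every rat. As Gpc3 had the largest fitted change of the panel in DEN model rats, its promoter (GRCr8, chrX:137157599-137157848, minus strand) is shown with its GC boxes in capitals, read here on the opposite strand as CCGCCC. They begin 78, 44, 34 and 10 bases before the start, and 71.6% of the window was G or C, against 37.2% in the Afp window.

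Gpc3: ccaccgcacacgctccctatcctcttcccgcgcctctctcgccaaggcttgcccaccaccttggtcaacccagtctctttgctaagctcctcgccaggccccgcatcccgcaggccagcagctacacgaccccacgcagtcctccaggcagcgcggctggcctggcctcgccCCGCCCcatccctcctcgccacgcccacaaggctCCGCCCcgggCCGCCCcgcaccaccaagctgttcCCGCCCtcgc

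The GC box was present in 30.5% of all promoter windows. Among the 7 panel genes with a promoter entry (all but Golm1) it was absent from Afp and Cd44 and from the second window of Igf2, and Igf2bp2 held 6, Dlk1 2 and Igf2bp3 1. The 8 windows of these 7 genes held no AP-1 motif, a motif found in 6.34% of windows.

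Gpc3 was at 0.937, 1.14 and 1.01 CPM in N1, N12 and N3, at 110, 35.3 and 99.7 CPM in M13, M17 and M24, and at 14.1, 22.3 and 28 CPM in G27, G28 and G42. The 3 groups were fully apart, with every PZH administration rat between the DEN model and the normal control rats. It rose by 6.32 (SE 0.50, adjusted p = 0.00011) in DEN model against normal control rats, 79.6-fold on the linear scale. It fell by 1.91 (SE 0.43, adjusted p = 0.023) in PZH administration against DEN model rats, and 5 of the 6 fits without 1 rat lost this call, at an adjusted p of 0.05 to 0.082, the exception being the fit without M17. In PZH administration rats it stayed above normal control by 4.37 (SE 0.35, adjusted p = 0.0018), 20.7-fold on the linear scale.

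Of 9 tested glypicans, syndecans and heparan sulfate enzymes beside Gpc3, 4 rose, 3 fell and 2 did not pass in DEN model against normal control rats, with a median of -0.34. Sulf1, which removes sulfate groups from heparan sulfate, rose by 4.40 (SE 0.52, adjusted p = 0.00045). Gpc1 and Gpc6, at 0.0839 to 0.305 and 0.168 to 0.703 CPM in normal control rats, passed the filter on low counts through the DEN model rats alone. As descriptions, their means went from 0.182 and 0.443 CPM to 2.2 and 7.29 CPM. The fitted changes were 3.55 (SE 0.67) and 4.03 (SE 0.54). Notum, an enzyme that inactivates Wnt proteins, fell by 4.29 (SE 0.51, adjusted p = 0.00047) and the syndecan Sdc4 fell by 2.16 (SE 0.25, adjusted p = 4e-04). Notum rose in PZH administration against DEN model rats by 3.53 (SE 0.47, adjusted p = 0.0089) and Gpc6 fell by 1.90 (SE 0.38, adjusted p = 0.017).

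Cd44 encodes the hyaluronan receptor, an adhesion protein of leukocytes, stromal cells and progenitor cells, and lies at chromosome 3, 92696313 to 92783658. It was at 3.28, 4.73 and 5.12 CPM in N1, N12 and N3, at 78.5, 58.7 and 124 CPM in M13, M17 and M24, and at 11.8, 21.2 and 18.4 CPM in G27, G28 and G42. As for Gpc3, no group overlapped another and the PZH administration rats lay between. Cd44 rose by 4.33 (SE 0.34, adjusted p = 0.00011) in DEN model against normal control rats, a mean of 87.2 ± 33.7 CPM against 4.38 ± 0.97 CPM (SD, n = 3). It fell by 2.33 (SE 0.33, adjusted p = 0.0092) in PZH administration against DEN model rats, and it passed in each of the 6 fits without 1 rat (largest adjusted p = 0.044). PZH administration rats stayed above normal control by 1.96 (SE 0.31, adjusted p = 0.011), which missed the threshold without G28 or without N1 (adjusted p = 0.052 in each).

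Of 16 tested hyaluronan enzymes, ligands and partners of Cd44, 9 rose, 1 fell and 6 did not pass in DEN model against normal control rats, with a median of 1.36. Spp1, the Cd44 ligand osteopontin and also a ductular marker, rose by 5.92 (SE 0.68, adjusted p = 0.00041). Ezr and Msn, which link Cd44 to the actin skeleton, rose by 3.58 (SE 0.33, adjusted p = 0.00018) and 1.81 (SE 0.21, adjusted p = 0.00043), and Hmmr, a hyaluronan receptor tied to mitosis, by 3.88 (SE 0.45, adjusted p = 0.00041). In PZH administration against DEN model rats 3 of 17 fell, Spp1 with -2.96 (SE 0.73, adjusted p = 0.029), Ezr with -1.78 (SE 0.29, adjusted p = 0.012) and Msn with -1.20 (SE 0.20, adjusted p = 0.013). Ezr and Spp1 stayed above normal control in PZH administration rats, at 1.77 (SE 0.23, adjusted p = 0.0056) and 2.93 (SE 0.61, adjusted p = 0.028). Hmmr, at 0.229 to 0.937 CPM in normal control rats, passed the filter on low counts there through the PZH administration rats alone. Its fitted change of 3.13 (SE 0.63) is a description.

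Golm1 encodes Golgi membrane protein 1, which bile duct cells express in normal liver and hepatocytes in disease, and lies at chromosome 17, 5382034 to 5409038. It was at 6.09, 6.18 and 4.36 CPM in N1, N12 and N3, at 21.6, 6.53 and 13.1 CPM in M13, M17 and M24, and at 10.2, 5.70 and 6.83 CPM in G27, G28 and G42. The DEN model rats were above the normal control rats, M17 by a small margin, and G27 was above M17. Golm1 rose by 1.33 (SE 0.41, adjusted p = 0.027), which did not pass without M13 (0.85, adjusted p = 0.11), N1, N12 or N3 (adjusted p = 0.07, 0.06 and 0.088). PZH administration rats differed from DEN model rats by -0.83 (SE 0.43, adjusted p = 0.21) and from normal control rats by 0.47 (SE 0.30, adjusted p = 0.47).

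Of 10 other tested Golgi genes, 2 rose, 3 fell and 5 did not pass in DEN model against normal control rats, with a median of -0.11. Casc4, a relative of Golm1, rose by 3.45 (SE 0.47, adjusted p = 8e-04) and Mgat5, a glycan-branching enzyme, by 1.86 (SE 0.38, adjusted p = 0.0049). The mannosidase Man1a1 fell by 1.90 (SE 0.30, adjusted p = 0.0016). Casc4 and Mgat5 fell in PZH administration against DEN model rats, with -1.47 (SE 0.42, adjusted p = 0.045) and -1.15 (SE 0.34, adjusted p = 0.049), and Man1a1 rose by 1.28 (SE 0.28, adjusted p = 0.02).

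**Figure D2:**
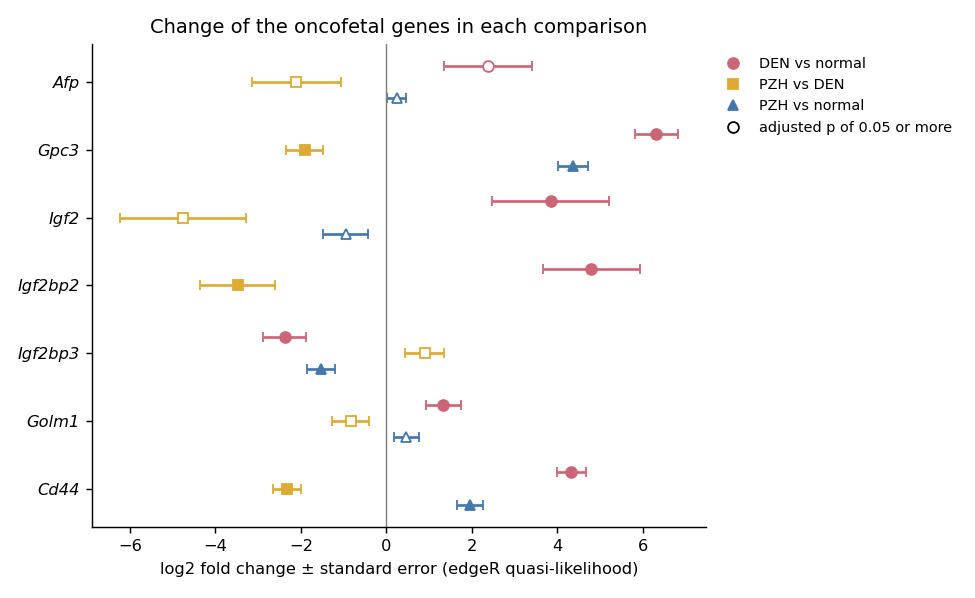
Log2 fold change with its standard error (horizontal axis) for the 7 tested genes (rows) in the 3 comparisons, with filled symbols for an adjusted p under 0.05 and open symbols otherwise. Gpc3 and Cd44 pass in all 3 comparisons, Igf2bp3 is the only gene below 0 in DEN model against normal control rats, and Afp passes in none.

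Beside the panel, 8 of 12 other markers of rat or human liver tumours rose in DEN model against normal control rats and 0 fell, with a median of 3.70. Over all tested genes 25.3% rose and 20.5% fell. Gstp1, the glutathione transferase that labels preneoplastic foci in rat liver, rose by 6.5 (SE 0.34, adjusted p = 2e-05) and Akr1b10 by 8.82 (SE 0.60, adjusted p = 5.6e-05). The proliferation genes Mki67 and Top2a rose by 4.24 (SE 0.24, adjusted p = 2.6e-05) and 4.18 (SE 0.34, adjusted p = 0.00012). In PZH administration against normal control rats 8 of 11 were higher, with a median of 2.32, where 4.07% of all tested genes were higher. Akr1b10 and Krt19, down to 0.503 and 0.687 CPM in normal control rats, passed the filter there through the PZH administration rats alone. That count of higher markers is therefore a description. Gstp1 in PZH administration against DEN model rats differed by -1.16 (SE 0.42, adjusted p = 0.09) and Akr1b10 fell by 2 (SE 0.42, adjusted p = 0.019).

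The 3 DEN model livers ranked differently in TMM-scaled CPM for different genes of the panel. M24 was highest for Afp, Igf2, Dlk1 and Cd44, M13 for Gpc3, Igf2bp2 and Golm1, and M17 for Igf2bp3, where M24 was highest by library totals. M13, the rat with the highest Gpc3, had the lowest Afp, Igf2, Dlk1 and Igf2bp3 of the DEN model rats. For Igf2bp2 M13 exceeded the next DEN model rat by 3.59 times and for Golm1 by 1.65 times, while for Gpc3 the gap was 1.10 times.

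Cell-type markers moved with the groups. The summed bile duct and ductular markers were at 13.4 to 21.1 CPM in normal control rats, at 639, 246 and 782 CPM in M13, M17 and M24, and at 83.0 to 110 CPM in PZH administration rats. In DEN model rats 7 of 7 passed upward, where 25.3% of all tested genes rose. Krt7, Sox9, Cftr and Cldn4, at most 0.229, 0.624, 0.312 and 0.156 CPM in normal control rats, passed the count filter there through the DEN model rats alone. So did Krt19, at 0.687 CPM in its lowest normal control rat. That tally is therefore a description. Then 7 of 7 fell in PZH administration against DEN model rats, where 10.3% of all tested genes fell. The stellate cell and fibroblast sum was 177 to 296 CPM, then 1990, 1080 and 3240 CPM, then 622 to 737 CPM, with 7 of 8 markers up in DEN model rats and 5 of 8 down in PZH administration against DEN model rats. Of the hepatocyte markers 5 of 8 fell in DEN model rats and 4 rose in PZH administration against DEN model rats. Proliferating cell markers (5 of 5 up in DEN model rats) summed to 6.40 to 8.39 CPM, 112 to 173 CPM and 29.3 to 81.6 CPM in the same order. Cdk1, Ccnb1 and Bub1, down to 0.336, 0.624 and 0.687 CPM in normal control rats, passed the filter through the DEN model rats alone. That tally is a description too. Lymphocyte and pan-leukocyte markers, with 3 of 5 up in DEN model rats and 1 of 4 down in PZH administration rats, summed to 24.9 to 35.6, 67.3 to 157 and 37.2 to 51.0 CPM. Macrophage sums overlapped between groups (428 to 836, 394 to 530 and 223 to 516 CPM), with 2 of 6 markers down in DEN model rats and 3 of 6 down in PZH administration against DEN model rats. Endothelial sums overlapped as well, at 334 to 411, 219 to 414 and 295 to 414 CPM, with 2 of 5 markers up and 2 down in DEN model rats. Erythroid sums were at 116 to 323 CPM in normal control rats, at 750, 293 and 83.1 CPM in M13, M17 and M24, and at 64.9 to 133 CPM in PZH administration rats, with 1 of 3 markers up in DEN model rats and 2 of 3 down in PZH administration against DEN model rats. Other tallies include genes admitted through the DEN model rats alone, such as Ank1, at 0 CPM in every normal control and PZH administration rat. Over all tested genes 25.3% rose and 20.5% fell in DEN model rats. In PZH administration against DEN model rats 8.72% rose and 10.3% fell. No marker of these lists was at 0 in all 9 rats. M24, the rat with high Afp and Igf2, had the lowest hepatocyte sum of the 9 rats and the highest ductular, stellate and lymphocyte sums. The part of these cell types in the levels of the 8 genes was not tested.

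**Figure D3:**
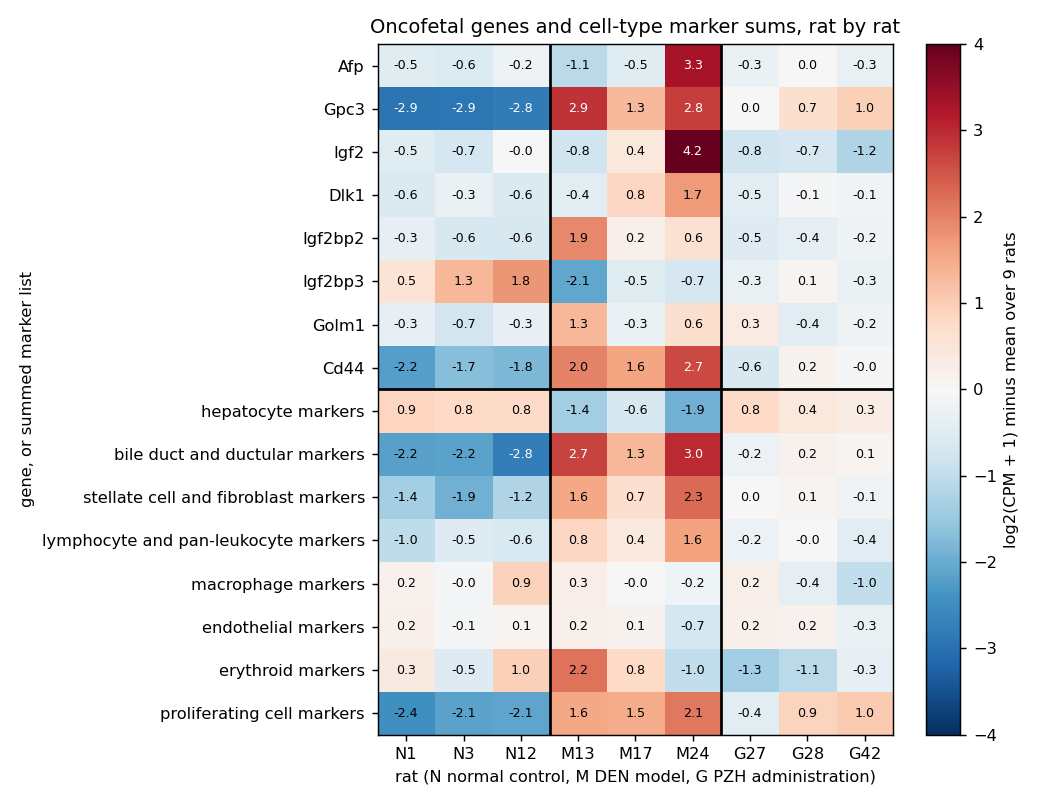
Each cell is the log2(CPM + 1) of a gene (top 8 rows) or of a summed marker list (lower 8 rows) in 1 rat (columns), minus its mean over the 9 rats, from blue (lower) to red (higher). Gpc3 and Cd44 follow the same order of groups as the ductular, stellate, lymphocyte and proliferating cell sums. Igf2bp3 is highest in the normal control rats, and Afp and Igf2 stand out in M24.

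The genes most like each panel gene were found as the smallest root mean square difference between profiles of log2(CPM + 1), each centred on its mean over the 9 rats, among 12663 genes. Gpc3 was closest to Bicc1 and Spint1, at 0.41 each, where the profile of Gpc3 itself had an SD of 2.21. Cd44 was closest to Cxcl6, a chemokine, and Col11a1, a collagen chain, at 0.21 each, beside an SD of 1.67. Igf2 was closest to Afp at 0.61 and to Fut2 at 0.63. Igf2bp2 was closest to Angpt2 (0.17) and to Ahsp (0.21), a chaperone of haemoglobin in red cell precursors. Igf2bp3 was closest to Crem (0.37) and Aadat (0.41), and Golm1 to Bmp6 (0.22) and Ltb (0.24). Genes at few counts, such as Igf2bp2, have flat profiles on this scale and small distances to many genes. Within the panel, Gpc3 and Cd44 differed by 0.78 and Gpc3 and Igf2bp3 by 3.20.

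Levels between genes were compared on the deposited FPKM, which corrects for transcript length and was not TMM-scaled. In normal control rats the order of mean FPKM was Igf2bp3 (9.93), Afp (5.81), Golm1 (3.62), Cd44 (0.687), Gpc3 (0.432), Igf2 (0.202), Dlk1 (0.026) and Igf2bp2 (0.0172). Igf2bp3 and Afp overlapped between rats there, as did Dlk1 and Igf2bp2, and the other neighbours did not. In DEN model rats the order was Gpc3 (65.6), Afp (59.5), Cd44 (26.1), Golm1 (17), Igf2 (5.74), Igf2bp3 (3.40), Dlk1 (1.18) and Igf2bp2 (0.967), and all neighbours overlapped. The mean of Afp there rests on M24, at 163 FPKM, with M13 and M17 at 6.70 and 8.58 FPKM. In PZH administration rats the order was Gpc3 (10.7), Afp (8.01), Golm1 (5.73), Igf2bp3 (4.08), Cd44 (3.20), Igf2 (0.119), Dlk1 (0.113) and Igf2bp2 (0.0558), and Cd44 and Igf2 were the only neighbours that did not overlap. Gpc3 thus stood at rank 5 of 8 in normal control rats and at rank 1 in the other groups, while Igf2bp3 went from rank 1 to rank 6 and rank 4.

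**Figure D4:**
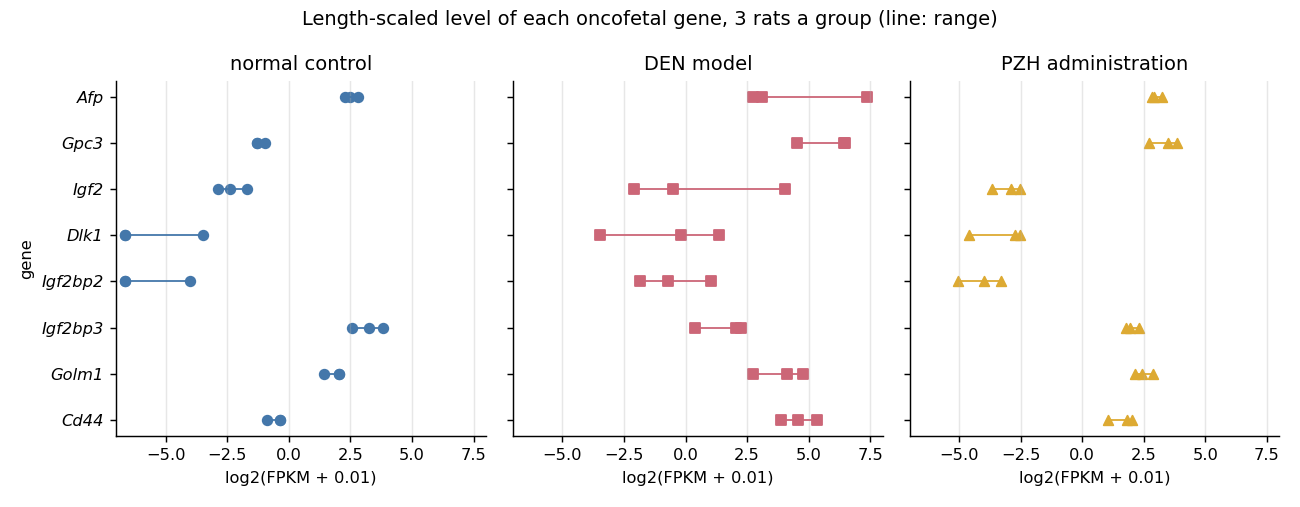
Log2(FPKM + 0.01) on the horizontal axis for each gene (rows) in the 3 rats of each group (panels), with a line over the range. Igf2bp3 and Afp are the highest genes in normal control rats, Gpc3 and Cd44 move to the right in DEN model rats, and the widest ranges are those of Igf2, Afp and Dlk1 in DEN model rats.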

How the data were processed

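The authors sequenced liver mRNA on an Illumina NovaSeq instrument. The submitters' processing notes name fastp, HISAT2 2.1.0, StringTie 1.3.3b and edgeR 3.30.3, and the genome build is not given in the sources used here. The deposited counts are raw whole-number read counts of each gene, not normalized by the authors. In the deposited FPKM the authors corrected these for transcript length and sequencing depth. The authors' group means, fold changes and P- and Q-value columns were not used.

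Counts were filtered with filterByExpr, scaled with TMM and tested with glmQLFit and glmQLFTest in edgeR 4.0.16 (R 4.3.3), with 6 rats in a comparison and no covariate. SE was taken as the absolute log2 fold change over the square root of F. Replicates were separate rats. The scripts were tested on simulated data. Intervals cover counting error only. With 3 against 3 rats an exact permutation test cannot go below 0.1, so none is given. Alternatives were DESeq2 1.42.0, library totals, other filters, all groups in 1 fit, edgeR's exact test, limma 3.58.1 on log2(FPKM + 1), and each rat left out. Promoters came from RefSeq (GRCr8), with entries for 7 of the 8 genes, and were searched with Python 3.11.15.

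The genes, lists and tests were chosen with earlier results of these data known. Named genes were the 8 markers, up to 4 genes with the smallest P (DEN model against normal control) from each list, genes whose role is described beside a marker, and the 2 nearest profiles of each marker that passed. Of the list of Afp regulators, 2 genes are not reported here, and its counts leave them out.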

Additional observations from a re-analysis of the deposited data

How the results depend on the processing

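Of 254 values of single genes under the alternatives, 209 kept direction and side of the threshold, 30 lost a call, 13 gained one and 2 reversed, which were Afp without M24 at -0.34 and 0.63 (-0.34 to 2.91 and -2.63 to 0.63 over the fits without 1 rat). Genes past the study's thresholds numbered 2 for DEN model against normal control and 4 with DESeq2, library totals or the exact test. The adjusted p gave 6 genes there, and 4 to 7 without 1 rat, the lowest without N1, N12 or N3. For PZH administration against DEN model they numbered 1, then 2 with DESeq2, 3 with library totals or the exact test, and 0 to 2 without 1 rat. Genes past the adjusted p there numbered 3, then 6 with library totals and 1 to 5 without 1 rat. They numbered 1 without any of G27, G28, G42, M13 or M24 and 5 without M17. For PZH administration against normal control the study's thresholds gave 1, then 2 with library totals or at least 10 counts in every rat and 1 to 2 without 1 rat, and the adjusted p gave 3, and 1 to 3 without 1 rat, the lowest without G28. Shares over all tested genes were taken only for the fits given in the Results, so these counts have no such share beside them. Library totals also moved the median of all genes, by 0.86 and -0.67 in the first 2 comparisons. Some fits without 1 rat tested Dlk1 as well, and its pass without M13 is among the counts. The causes were not tested.

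Gpc3 and Cd44 in DEN model against normal control rats, and the lower Igf2bp3 there (-2.72 to -1.35), passed under every alternative run. Afp in that comparison passed with library totals (3.36, adjusted p = 0.017), edgeR's exact test (adjusted p = 0.036), without M13 (2.91, adjusted p = 0.028) and without M17 (2.87, adjusted p = 0.033), and DESeq2 gave it no adjusted p. Igf2 in PZH administration against DEN model rats passed with DESeq2 (adjusted p = 0.0093), library totals (0.016), no filter (0.047), all groups in 1 fit (0.028), the exact test (0.0037) and without M17 (0.031). With DESeq2, library totals and the exact test it was admitted through the DEN model rats alone, so those passes are descriptions. Golm1 passed in the same comparison with library totals (-1.56, adjusted p = 0.023) and without M17 (-1.18, adjusted p = 0.044). Afp passed in it with library totals alone (-2.9, adjusted p = 0.048). On log2(FPKM + 1) with limma, the calls of Igf2 in DEN model against normal control rats (1.46, adjusted p = 0.18) and of Igf2bp2 in PZH administration against DEN model rats (-0.80, adjusted p = 0.071) were lost. Igf2bp3 in PZH administration against normal control rats also lost its call with at least 10 counts in every rat (adjusted p = 0.051), all groups in 1 fit (0.078) and limma (0.11). Depth limits Dlk1, Igf2bp2 and Lin28a, which had few or no counts outside the DEN model rats. For Igf2 it limits the PZH administration rats (6 to 20 counts). It also limits list genes with few counts in normal control rats, such as Gpc1, Gpc6 and Jag2. No paired analysis was possible because the groups share no rat numbers.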
